A study of Mus musculus with 574 samples.

Results

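Among single bone marrow cells sorted as granulocyte/macrophage progenitors (GMPs) after 5-fluorouracil (5-FU), 139 of 500 cells were taken as a stem and multipotent class, called S cells here. Kept were cells with 50000 or more reads in genes and 1000 or more genes detected. For every cell 4 scores were taken, each the mean of log2(CPM + 1) over 4 genes, where CPM is counts per 1e+06 reads in genes, and each score was turned into a z-value over the 500 cells. The S score used Adgrg1, Angpt1, Ifitm1 and Hoxa9. The other scores were a monocyte score M (Irf8, Csf1r, Ly86, F13a1), a granulocyte score G (Elane, Fcnb, Cebpe, Gstm1) and a score E for erythroid, mast and basophil genes (Gata1, Gata2, Car2, Ms4a2). An S cell is one whose highest z-value is S, so the levels of these 16 genes, and any contrast of S cells with the rest, are described with no test.

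The cells came from C57Bl/6 wild-type mice, sampled 0, 8, 10, 12 and 14 days after 5-FU was given once at 150 mg/kg. The labels list all groups under 5-FU, and the protocol also names control mice given PBS without saying which cells came from them. Single cells that were lineage-negative, c-Kit+, Sca-1-, CD34+ and FcγR+ were sorted into wells, and Smart-seq2 libraries, which cover whole transcripts and carry no molecular identifiers, were made from each. There are 6 sets, 1 a day except on day 8, which has 2 sets numbered as replicates. Whether the day 8 sets are from different mice is not given, so every p-value reflects the spread between sets alone, which may be technical. Where 6 values are given for a gene, they are in the order day 0, first day 8 set, second day 8 set, day 10, day 12 and day 14, and a summed level is the CPM of the counts summed over the cells of a set.

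5-FU is a pyrimidine analogue that blocks thymidylate synthase and kills cycling cells, and the marrow is then rebuilt from surviving stem and progenitor cells. Blood stem cells give rise to multipotent progenitors, which lose self-renewal and keep several lineages open, and these give rise to GMPs, the source of neutrophils and monocytes. Genes of several lineages can be transcribed at low levels in the same multipotent cell before one programme takes over. Among the scoring genes, Adgrg1 encodes the adhesion receptor GPR56, Angpt1 the Tie2 ligand angiopoietin-1, Ifitm1 an interferon-induced membrane protein, and Hoxa9 a homeobox factor of early progenitors that is turned off as myeloid cells mature. In GRCm38 (the same build as mm10) Adgrg1 lies on chromosome 8 from 94974751 to 95014217, Angpt1 on chromosome 15 from 42424723 to 42676977, Ifitm1 on chromosome 7 from 140967221 to 140969825 and Hoxa9 on chromosome 6 from 52223100 to 52231089.

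S cells were most frequent on day 8. They made up 7 of 92 kept cells at day 0, 46 of 90 and 48 of 93 in the day 8 sets and 25 of 93 by day 10. Days 12 and 14 had 7 of 85 and 6 of 47. As shares these are 7.61%, 51.1%, 51.6%, 26.9%, 8.24% and 12.8%. The exact 95% intervals are 40.3 to 61.8% and 41 to 62.1% for the day 8 sets and 3.11 to 15.1% for day 0. They cover counting error only, not the spread between sets or mice. These shares are how the rule splits the sets, not a test of the days. Genes of the scores themselves differed between sets, and how far each moved the shares was not tested. In the other cells the G genes summed to 19012, 4766, 4205, 15316, 17627 and 17592 CPM in the order given above. The M genes summed to 1243, 772, 459, 621, 1218 and 1026 CPM there. Ifitm1 of the S score differed too. Its summed level in S cells was 63.1, 745, 1025, 801, 90.1 and 72.2 CPM, and that in the other cells was 38.1, 172, 638, 396, 28.6 and 77, so both were high in the day 8 and day 10 sets. With z-values taken within each set the shares were closer together, at 20.7, 33.3, 31.2, 25.8, 20 and 25.5%, and 100 of the 139 S cells stayed in the class. Without Ifitm1 in the score they were 9.78, 43.3, 40.9, 20.4, 14.1 and 12.8%.

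**Figure D1:**
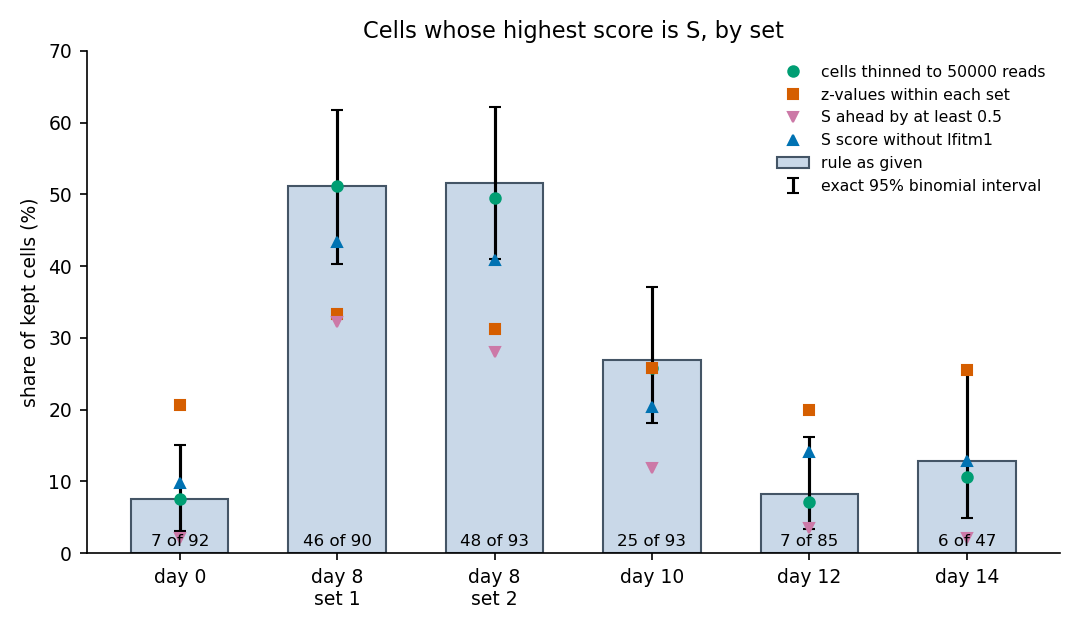
Share of kept cells (%) whose highest score is S in each of the 6 sets, as bars with exact 95% binomial intervals, with the number of cells at the foot of each bar and the shares under 4 other forms of the rule as symbols. The bars are highest in the day 8 sets, at 51.1 and 51.6%, while with z-values within each set the shares run from 20 to 33.3%.

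The class has no sharp edge. The S z-value led the next score by under 0.5 in 67 of 139 cells and by under 0.1 in 13, and another 55 cells missed the class by under 0.5. The 10 cells just inside had a median S z-value of 0.67 against 0.62 for their next score, and the 10 just outside had 0.51 against 0.56. The score next to S changed with the day. On day 8 it was E in 64 of 94 S cells, G in 23 and M in 7. On day 10 it was E in 4 of 25, G in 12 and M in 9. The median lead was 0.648 and 0.616 in the day 8 sets and 0.403 on day 10. By these scores S cells of day 8 lay mostly next to E and those of day 10 next to G and M. The same scored genes differed in the other cells. There the G genes summed to 4766 and 4205 CPM on day 8 and 15316 on day 10, and the E genes to 336, 551 and 76.7. How far this difference of whole sets gave the change of next score was not tested.

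Depth and other cell types were checked in S cells before the comparisons. Median depth was 80156 to 289938 reads in genes by set, lowest on day 14, where the median S cell had 5110 genes with a read against 8416 in the first day 8 set. Summed over S cells the sets held 498639 to 15728202 reads. One gene, Slc34a2, took a median of 9.42 to 34.9% of the reads of an S cell, highest on day 14. Xist, transcribed from the inactive X chromosome, was at 425 CPM in S cells on day 0 and 244 on day 12 and at 0 to 1.35 in the other sets, and the Y-linked Eif2s3y was at 1.02 and 0.875 CPM on days 0 and 12 and at 58.9 to 78.2 in the others. Days 0 and 12 therefore cannot be told apart from sex against the other days, while days 8 and 10 are alike in this. The macrophage list of 9 genes summed to 5.69 to 26.1 CPM in S cells, against 22.5 to 38.9 in the others. The T and NK cell list summed to 510 to 1236 CPM, of which Nkg7, also on the granule list, gave 497 to 1221, and the stroma and endothelium list to 107 to 193, mostly from Eng, Pecam1 and Emcn. Defining markers were rare. After thinning each cell to 50000 reads, Cd3e had a read in 0 of 139 S cells, which allows a share of up to 2.16%, C1qa in 4, Col1a1 in 5 and Cdh5 in 3. Cells were sorted 1 to a well, no doublet caller was run, and no 2 cells had identical counts (0 pairs).

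The label of a stem-like class was checked against genes that the rule did not use, first those of long-term stem cells. Of 15 genes on that list, 8 had a read in at least 10% of S cells or of other cells, and of these 0 were higher and 0 lower in S cells in all 6 sets. Their median log2 ratio of S to other cells was 0.14, against -0.03 over all 13987 genes. Of all those genes 1.84% were higher in every set and 3.89% lower. A list of 8 would hold few such genes at those shares, so the counts of 0 say little about this list. Procr (the endothelial protein C receptor EPCR) had a read in 6 of 139 thinned S cells and Slamf1 (CD150) in 3. The stem cell transcription factors Mecom and Hlf were read more often, in 17 and 28 of 139, and Hlf was higher in S cells than in the others in 5 of 6 sets, at 1.31 to 11.2 CPM. Mecom was read in 12.2% of S cells and 21.6% of E cells, and Slamf1 in 3 S cells and 7 E cells. Ly6a, which encodes the Sca-1 protein that the sort selected against, had a read in 25 of 139, at summed levels of 0 to 15.4 CPM. The cells are for this reason called S cells, and no claim is made that they are stem cells.

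Genes of multipotent and early progenitors stood out by their count but not by their median. Of 25 such genes with enough cells, 6 were higher in S cells than in the other cells of the same set in all 6 sets and 2 were lower, with a median log2 ratio of 0.23. The median was also 0.23 for 25 ribosome biogenesis genes, and it was 0.32 for 11 MHC class I genes. These ratios are to all other cells together, not to E cells alone. Over all 13987 genes, 1.84% were higher in every set and 3.89% lower. The 6 were Cd34, Cd27, Lmo2, Sox4, Myb and Ctla2a. Over all sets Ctla2a was higher still in E cells, at 83.4 CPM against 42.5 in S cells, while Cd27 was at 144 against 229. Cd34 encodes a surface sialomucin of stem and progenitor cells, and its summed level in S cells was 594, 900, 739, 663, 877 and 341 CPM. In the other cells it was 342, 330, 355, 264, 438 and 299. S cells were higher in each set, least so on day 14. Cd27, a TNF receptor family member of multipotent progenitors, was at 280, 180, 226, 282, 374 and 319 CPM in S cells and 124, 59, 131, 134, 97.9 and 76.8 in the others. Lmo2, a bridging protein of stem cell transcription factor complexes, was at 234 to 560 CPM in S cells and 140 to 323 in the others. Plac8 and Prom1 were the 2 lower genes, Plac8 at 3481 CPM over all S cells and 4398 over all others, and Prom1 (CD133) at 3.86 and 15.4.

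Flt3, the receptor of lymphoid-primed multipotent progenitors, was read in 47 of 139 thinned S cells (33.8%, exact 95% interval 26 to 42.3%). The share was 10.8% of E cells, 9.45% of G cells and 22.5% of M cells. Its summed level in S cells was 38.3 and 42.1 CPM on day 8 and 25.6 on day 10, against 7.02, 29.4 and 5.14 in the other cells. It was below the other cells at day 0 (2.03 against 11) and at day 14 (0 against 15.4), and the 14 CPM of day 12 came with a read in 1 of 7 cells, so the higher level was seen on days 8 and 10. Lymphoid genes did not come with it. Dntt (terminal transferase) or Il7r (the IL-7 receptor) had a read in 4 of 139 S cells, and the 57.8 CPM of Dntt in the second day 8 set came from few cells, with 1757 CPM in the highest and a read in 2.08% after thinning.

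**Figure D2:**
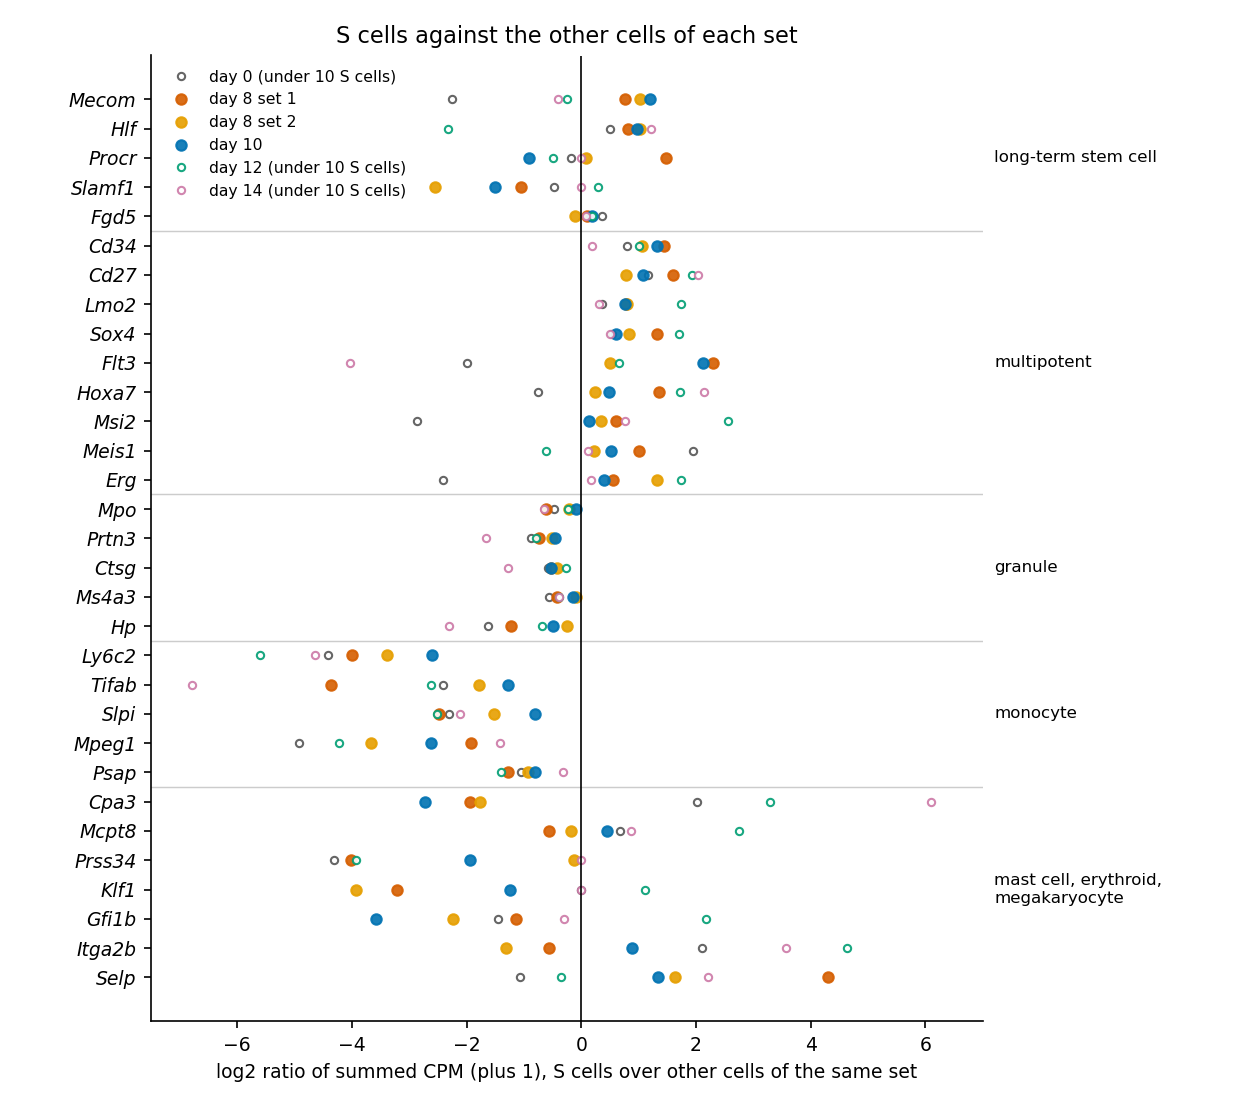
Log2 ratio of summed CPM (plus 1) of S cells over the other cells of the same set for 31 genes that the rule did not use, grouped by list, with filled points for the 3 sets of at least 10 S cells and open points for the 3 smaller sets. Cd34, Cd27, Lmo2 and Sox4 lie right of 0 in every set, the long-term stem cell genes lie on both sides, and the monocyte genes lie left of 0.

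The genes that led S cells over other cells by the median log2 ratio were in part shared with the E class. Among genes higher in all 6 sets, the 20 with the highest ratio held 3 scored genes (Angpt1, Adgrg1 and Hoxa9). The next were Spns2, a sphingosine-1-phosphate exporter, with a median log2 ratio of 1.65, Rbpms, an RNA-binding protein, with 1.62, Cd27 with 1.38, Tespa1 with 1.32 and Rab38 with 1.30. Of the 20, 9 had a higher summed level in E cells than in S cells, and 0 had a higher level in G or in M cells. Class levels, here and elsewhere, pool the sets, which the classes hold in different proportions. The day 8 sets gave 46 and 48 of 139 S cells and 15 and 29 of 74 E cells. They gave 14 and 8 of 127 G cells and 15 and 8 of 160 M cells. How far the day gave the likeness of S and E cells was not tested. Spns2 was at 42.4 CPM in S cells, 44.5 in E, 7.51 in G and 1.06 in M cells. Ctla2a was at 42.5 CPM in S cells and 83.4 in E, and Ikzf2, the transcription factor Helios, at 41 and 95.4. The other 11, among them Cd27, Fam69b, Marcksl1 and Slc35b4, had their highest summed level in S cells. Marcksl1, a MARCKS-related actin regulator, was at 53.1 CPM in S, 26.3 in E, 26.5 in G and 18.1 in M cells. Only Adgrg1, a scored gene, was at least 2-fold higher in every set (0.00715% of genes), and 22 genes were at least 2-fold higher in each of the 3 sets with 10 or more S cells.

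S cells held granulocyte and monocyte transcripts at the same time. Mpo (myeloperoxidase, the main enzyme of primary granules) had reads in 139 of 139 thinned S cells and the scored gene Elane (neutrophil elastase) in 136. Irf8, the factor that drives monocyte and dendritic fates, had reads in 88, and Gfi1, the repressor that drives the neutrophil fate, in 65 (46.8%). Gfi1 with Irf8 was read in 41 S cells (29.5%), beside 30.7% of the other cells, so this pair was about as frequent in both. Elane with Irf8 was read in 61.9% of S cells and 72.9% of the others. Elane, Irf8 and Gata2, a factor of stem, mast and megakaryocyte cells, were read together in 32 (23%), a share of 37.8% in E, 7.09% in G and 13.1% in M cells. Elane, Irf8 and Car2, carbonic anhydrase II of the erythroid line, were read together in 48 (34.5%), and in 37.8% of E, 13.4% of G and 7.5% of M cells. All 4 of these genes are scored, so the rule itself shapes how these combinations differ between classes. The classes also pool the sets in different proportions. In the day 8 sets and on day 10, S cells held the Gata2 combination in 17.4, 29.2 and 16%. The other cells held it in 18.2, 24.4 and 16.2%. The Car2 combination was read in 41.3, 33.3 and 28% of S cells and 18.2, 35.6 and 16.2% of the other cells. Flt3 and the scored gene Gata2 were read together in 17 S cells (12.2%, interval 7.29 to 18.9%) and in 5 of 74 E, 1 of 127 G and 7 of 160 M cells.

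The genes lowest in S cells were those of monocytes and of later granulocytes. At least 2-fold lower in every set were 24 genes (0.172%). Of 14 monocyte genes outside the scores, 11 were lower in all 6 sets and 0 higher, with a median log2 ratio of -1.30. Ly6c2, the Ly6C surface protein of monocytes and their progenitors, was at 115 CPM over all S cells, 153 in E, 2054 in G and 4555 in M cells. S100a8, a calcium-binding protein of neutrophils, was at 4.55 CPM in S, 9.18 in E, 648 in G and 4.78 in M cells. It was thus high in G cells alone, and its median ratio was the lowest of all, -5.72. Primary granule genes were lower by less. Of 14 on the list 8 were lower in every set and 1, Cebpa, the C/EBPα factor required for GMPs to form, was higher, and their median was -0.41. Mpo in S cells was at 37560, 19385, 14642, 47393, 44495 and 21717 CPM. In the other cells it was at 52204, 29668, 17090, 50759, 52562 and 34010, so that S cells were lower within each set, while S cells of day 10 were above the other cells of both day 8 sets.

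Of 8 sort gate genes, 2 (Cd34 and Kit) were higher in S cells in every set and 0 lower, with a median log2 ratio of 0.17. Kit, the stem cell factor receptor, was higher in S cells in all 6 sets, at 69.1 to 150 CPM against 41 to 95 in the others. Fcgr3, which encodes the low-affinity Fcγ receptor III that the FcγR gate detects, was lower in 5 of 6 sets, at 60.3 and 98.5 CPM in S cells of day 8 against 168 and 164. Of 11 Myc network genes, Myc and Odc1 were higher in S cells in every set and Mxd3, a repressor of Myc targets, was lower, with a median of -0.31. Myc was at 539 CPM over all S cells and 304 over the others. Of 25 ribosome biogenesis genes 4 were higher (Fbl, Nop14, Wdr12 and Dkc1) and 0 lower, with a median of 0.23. Of 34 DNA replication genes 0 were higher in every set and 2 lower, with a median of -0.07. Of 26 mitosis genes 0 were higher and 0 lower, with a median of 0.07. Over all 13987 genes 1.84% were higher in every set and 3.89% lower. Lists this short would hold few such genes at those shares. The replication and mitosis counts therefore do not show that these programmes were alike in S cells and the others. Of 13 adhesion genes 2 were higher in all sets and 1 lower. Cd9 and Cd47 were the 2 higher, Cd47, a signal that restrains phagocytosis, at 1061 against 829 CPM. Cxcr4, the receptor that holds progenitors in the marrow, was lower in all 6 sets, at 4.14 against 9.67 CPM.

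The 20 S cells of days 0, 12 and 14 were too few to test, by a minimum of 10 S cells a set, and their levels are given with no test. The mast cell and basophil list summed to 2528, 1852 and 1865 CPM in them, against 1360 and 1725 in the day 8 sets and 2177 on day 10. The other cells of days 0, 12 and 14 had 2254, 2028 and 1981. The megakaryocyte list summed to 160, 293 and 193 CPM, against 136 and 143 on day 8 and 179 on day 10. The other cells of days 0, 12 and 14 had 137, 124 and 126. On both lists day 10 lay within the range of the small sets. Single genes of these lists lay further apart. Cpa3, carboxypeptidase A3 of mast cells and their progenitors, was at 475, 63.5, 32.3, 6.65, 264 and 632 CPM in S cells. The other cells had 116, 248, 113, 49.6, 26.2 and 8.27 CPM. S cells were thus higher than their neighbours in the small sets and lower in the large ones. Cpa3 was read in 5 of 7, 6 of 7 and 3 of 6 thinned S cells of days 0, 12 and 14, while on day 14 a single cell reached 4318 CPM against a median of 64.9. Itga2b (CD41), a megakaryocyte and early progenitor integrin, was at 32.6, 150 and 114 CPM in S cells of days 0, 12 and 14 against 6.79, 5.08 and 8.73 in other cells, and at 11.9, 21.7 and 13.2 against 18, 55.4 and 6.66 in the day 8 sets and on day 10. Gata2, a scored gene of the E class, was read in 6 of 7 S cells on day 12, where its 7 values were 0, 56.3, 107, 121, 170, 171 and 213 CPM. With so few cells, and with sex differing on days 0 and 12, what set these S cells apart was not tested.

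**Figure D3:**
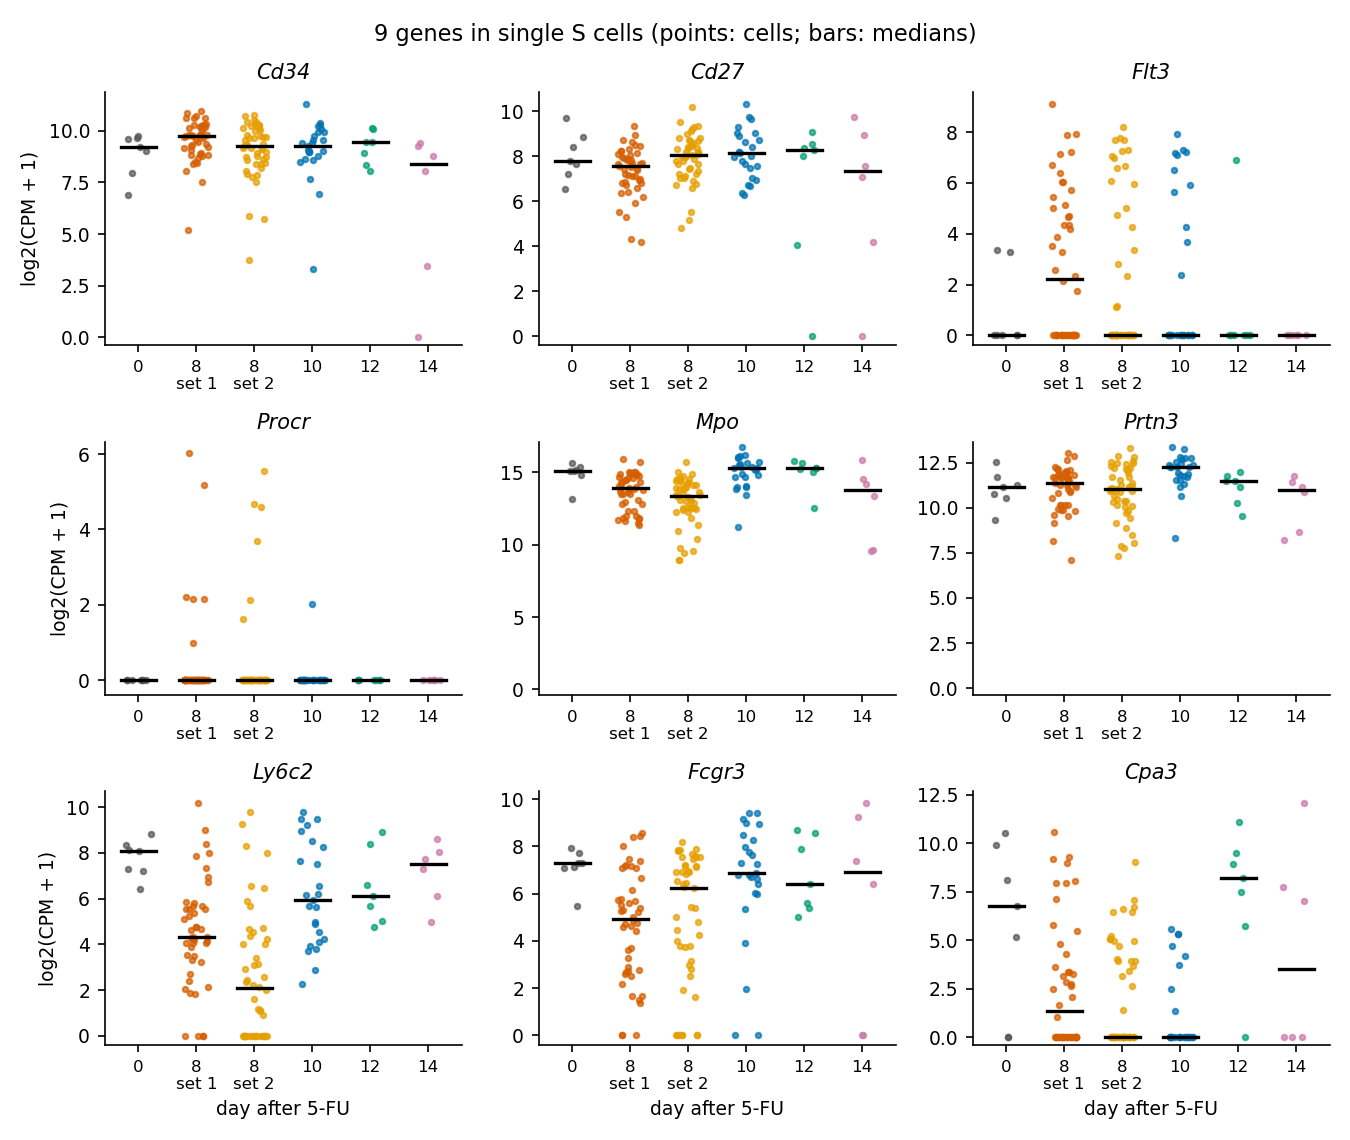
Log2(CPM + 1) of 9 genes that the rule did not use in each S cell, by day and set, with medians as bars. Cd34 and Cd27 are present in nearly all cells, Flt3 and Procr are at 0 in many or most, Mpo, Ly6c2 and Fcgr3 are lower in the day 8 sets than on day 10, and Cpa3 is high in several cells of days 0, 12 and 14.

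Between day 8 and day 10, 8 of 14 primary granule genes, the Fcγ receptor gene Fcgr3 and 3 of 17 cytokine receptor genes rose in S cells. Among the genes that fell were the mast cell gene Cpa3 and 2 of 25 multipotent and early progenitor genes, Ctla2a and, at low levels, Gfi1b. The counts of the 94 S cells of the day 8 sets and of the 25 of day 10 were summed within each set and compared with edgeR's quasi-likelihood test. Of 14336 genes, 177 (1.23%) were higher and 125 (0.872%) lower on day 10 at an adjusted p under 0.05. In 67 of these 302 genes under 20% of the S cells of every set had a read, and in 35 a single cell gave over 50% of the reads on the higher day, so the genes named below mostly come from the 129 that had a read in at least 20% of the S cells of a set and at least 32 CPM on either day. Of those, 124 were not scored, 99 higher and 25 lower. DESeq2's Wald test called 58 higher and 46 lower, all among the edgeR calls, and limma voom called 60 and 4. The balance turned in 2 alternatives, with 119 higher and 142 lower calls in S cells leading by 0.5 or more, and 78 and 92 in cells with at least 200000 reads and 2000 genes. With no gene filter edgeR called 0 of 27260, while 1214 had an unadjusted p under 0.05. Of 41 genes followed through the alternatives, the largest changes and the called members of the lists, Mpo, Fcgr3, Hdc and Cd151 were the 4 that kept their call by DESeq2, by voom, after thinning, with S cells leading by 0.5 or more, and without Ifitm1 in the score. The test had 1 residual degree of freedom and gave all genes the same prior spread (infinite prior degrees of freedom), so it rests on how alike the 2 day 8 sets were. The rise of myeloid genes came together with the shift of the second score from E to G and M given above, and its part in the result was not tested.

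Primary granule genes rose. Of 14, 8 were higher on day 10 and 0 lower, with a median log2 change of 0.80 against -0.03 over all genes. Mpo rose by a log2 change of 1.53 (SE 0.18, adjusted p = 3.94e-13), from 19385 and 14642 to 47393 CPM. Single cells overlapped, from 2634 to 61035 and from 483 to 52605 CPM in the day 8 sets and from 2411 to 107910 on day 10, with medians of 15103, 10417 and 39646. Prtn3 (proteinase 3) rose by 0.92 (SE 0.21, adjusted p = 0.0028), from 2894 and 3187 to 5563 CPM. Ctsg (cathepsin G) went from 6601 and 6640 to 10518 CPM, Prss57 from 171 and 170 to 329, Alas1, the first enzyme of heme synthesis, from 197 and 159 to 348, and Hp (haptoglobin) from 146 and 175 to 391. Nkg7 and Igsf6 completed the 8. Among these 8, Mpo alone passed in S cells leading by 0.5 or more, where Prtn3 changed by 0.44. Ms4a3, a marker of GMPs, did not pass, with a log2 change of 0.71 and an adjusted p of 0.06. Of the late neutrophil list, Lcn2 (lipocalin 2) rose from 68.6 and 95.2 to 175 CPM, and Cebpd, a C/EBP factor, from 33 and 30.6 to 83.9.

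Of 13 monocyte genes tested, 3 rose and 0 fell, with a median of 0.32. Ly6c2 went from 93 and 51.3 to 268 CPM (log2 change 1.94, SE 0.26, adjusted p = 5.41e-10), with single-cell medians of 18.9, 3.2 and 59.8. Tifab, a regulator of TRAF6 signalling, went from 3.94 and 13.5 to 42.5, and Slpi, a protease inhibitor, from 44.3 and 46.2 to 89.2. The rises of Ly6c2 and Tifab rested on cells near the edge of the class. In S cells leading by 0.5 or more, 11 of them on day 10, the log2 changes were -0.49 and -0.83 (edgeR adjusted p = 0.779 and 0.802). Mpo kept its call there with a change of 0.92. Ltb4r1, a leukotriene B4 receptor, rose by 2.16 over all S cells and changed by -0.15 in those leading ones.

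Receptors for myeloid signals rose with them. Fcgr3 went from 60.3 and 98.5 to 266 CPM, a log2 change of 1.80 (SE 0.26, adjusted p = 1.29e-08), and day 10 lay above both day 8 sets. Of 17 cytokine receptor genes, 3 rose and 1 fell, with a median of 0.41. Il6ra, the IL-6 receptor chain, rose by 2.09 (SE 0.40, adjusted p = 8.16e-05), from 16.7 and 12.3 to 59.6 CPM, although 34.6% of its day 10 reads came from 1 cell. Csf2ra, the GM-CSF receptor chain, went from 19.2 and 35.3 to 77.6, and Ifngr1, the interferon-γ receptor chain, from 325 and 345 to 581. Among the largest rises were also Kyat1, an aminotransferase (2.57), and Elovl7, a fatty acid elongase (2.30). They had a read in 10 and 11 of the 25 S cells of day 10, and 1 cell gave 41.2 and 31.9% of those reads. The change of Elovl7 was as low as 0.38 among the alternatives. Genes of lysosomes and of protein folding in the endoplasmic reticulum were among the 99, a grouping made after the values were seen: Grn (progranulin) rose by 1.18, Gaa by 1.22, Hexa by 0.89, Arsb by 2.11, Pdia6 by 0.81 and P4hb by 0.82.

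Of the 124 genes, 25 fell. Cpa3 dropped by 2.80 on the log2 scale (SE 0.47, adjusted p = 2.58e-06), from 63.5 and 32.3 to 6.65 CPM, while Hdc, the histamine-forming enzyme of basophils, mast cells and also early myeloid progenitors, rose from 80.6 and 97.1 to 264. On the multipotent list 2 of 25 genes fell and 0 rose, with a median of -0.26. Ctla2a, a cysteine protease inhibitor, went from 48.1 and 53.3 to 15.4 CPM, and from 30.9 and 49.2 to 10.8 in the other cells. Gfi1b, a repressor of the erythroid and megakaryocyte lines, had 9.92 and 4.99 CPM on day 8 and 0 reads on day 10. That puts the log2 fall of Gfi1b at 4.25 or more against a floor of 3 reads. Cd34 (-0.26, adjusted p = 0.791), Flt3 (-0.60, 0.612), Lmo2 (-0.08, 0.978), Meis1 (-0.85, 0.272) and Cd27 (0.53, 0.376) did not pass. The endothelial and stem cell genes Egfl7 and Pecam1 went from 80.8 and 85.9 to 30 CPM and from 63.3 and 49.7 to 20.5. P2ry14, a UDP-glucose receptor, went from 48.6 and 74 to 17.3, H2-Ab1 of MHC class II from 38 and 41.2 to 12.5, and the immediate early gene Fos from 86 and 35.6 to 25. The first day 8 set decided the size for Fos, whose change of -1.24 was -0.44 without it. Among the largest falls, Il18rap, the accessory chain of the IL-18 receptor, went from 25.9 and 40.9 to 3.13 CPM, and Cd151, a tetraspanin, from 71.4 and 47 to 9. On the long-term stem cell list 2 of 10 genes tested fell and 0 rose, with a median of -0.43. Ctnnal1 was one, on few reads, from 9.85 and 4.52 to 0.391 CPM.

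AA474408 and Mir6236 also fell, and the second day 8 set decided the size. AA474408, a locus with no assigned type on chromosome 7 from 110057987 to 110061325, was at 9.03 and 467 CPM on day 8 and 6.39 on day 10, and 1 cell gave 54.2% of its day 8 reads. Its log2 change of -5.15 was -0.46 without the second day 8 set. Mir6236, annotated as a miRNA on chromosome 9 from 110281287 to 110281409, was at 90.9 and 881 CPM on day 8 and 57.5 on day 10, and its change of -3.01 was -0.63 without that set. Of its day 8 reads, 45.5% came from 1 cell. DESeq2's Wald test did not call either.

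Many programmes showed no called change in S cells from day 8 to day 10. None of 34 DNA replication genes, 26 mitosis genes, 25 ribosome biogenesis genes, 18 glycolysis genes, 22 respiratory chain genes, 11 MHC class I genes or 19 cholesterol genes passed (0 in each direction), with medians of -0.10, -0.05, -0.08, -0.18, -0.16, 0.03 and 0.15. Over all genes tested 1.23% were called higher and 0.872% lower. Lists this short would hold few calls at those shares, so the lack of calls does not show that these programmes were unchanged. Mki67, the proliferation antigen Ki-67, was at 136 CPM in both day 8 sets and 134 on day 10.

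The change in S cells was then set against that in the other cells of the same sets, as the difference of the 2 log2 changes with the set as a block. Of 15170 genes, 1 was called (0.00659%), while 1082 had an unadjusted p under 0.05. DESeq2's Wald test called 13 higher and 7 lower and limma voom 0 (989 at an unadjusted p under 0.05). The 1 gene was Mir6236, which went from 664 and 7171 to 67.2 CPM in other cells and from 90.9 and 881 to 57.5 in S cells, a difference of 2.71 (SE 0.15, adjusted p = 0.0259). For the other 123 genes called above the minimum in S cells and not scored, the smallest adjusted p of the difference was 0.107. Mpo went from 29668 and 17090 to 50759 CPM in other cells, and its change in S cells exceeded that in the others by 0.31 (adjusted p = 0.716). Fcgr3 went from 168 and 164 to 409 CPM in other cells (difference 0.48, adjusted p = 0.787), and Il6ra from 39.7 and 26.2 to 47.5 (1.49, 0.681). The rise of 91 of the 99 higher genes was numerically larger in S cells, which the choice of genes by their change in S cells favours. By edgeR with the gene filter and by voom, no rise of S cells from day 8 to day 10 was shown to differ from that in the rest of the gate, while edgeR called 35 higher differences with no gene filter and 4 after thinning.

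**Figure D4:**
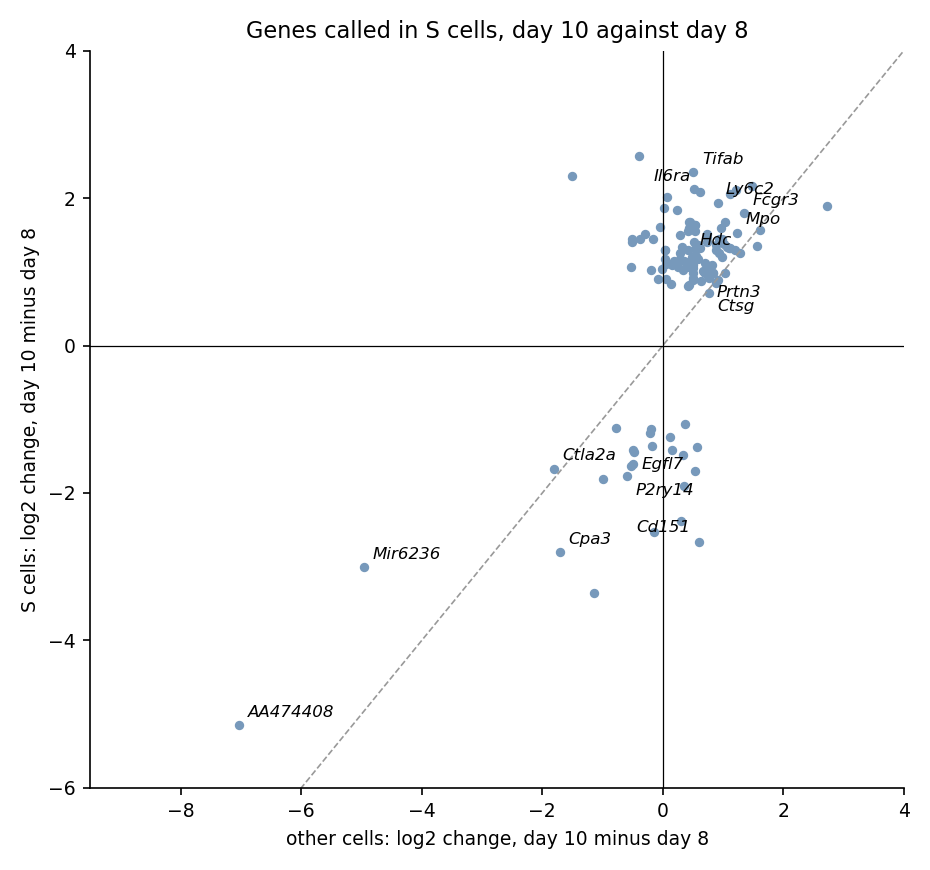
Log2 change from day 8 to day 10 in S cells (vertical) against that in the other cells of the same sets (horizontal) for the 124 genes called in S cells above the minimum and not scored, with the line of equal change dashed. Vertical values are from the fit of S cells alone and horizontal ones from the fit of both, so distance from the line is not the tested difference. For Mir6236 the S cell change was -3.01 in the first fit and -2.25 in the second. Most points lie in the upper right, with Mpo, Prtn3, Ctsg and Fcgr3 near the line, and Mir6236, the only gene whose difference passed, lies at the lower left with a larger fall in the other cells.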

How the data were processed

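The authors deposited raw counts, whole numbers of reads for each gene in each cell. The submitters' processing notes name GSNAP 2015-09-29, HTSeq 0.5.3p3 and the mm10 build. PCR copies are counted, since there are no molecular identifiers, and neither Smart-seq2 nor Nextera XT, per the labels' protocols, marks the strand. Of 574 labelled cells 573 had a column, 1 further column was not used, and 500 cells were kept. Rows that name no gene (5, with 90.4% of all reads in the median cell) and 92 spike-in rows were left out. Symbols came from GENCODE M21 (GRCm38), matched by ID for 45143 of 46078 genes.

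Cells are not replicates, so counts were summed over the S cells, and over the other cells, of each set. Comparisons with a set of under 10 S cells were left out, which leaves day 10 against day 8 and the same change against that in other cells. Both used edgeR 4.0.16 (R 4.3.3), TMM scaling and quasi-likelihood F tests, with p-values adjusted by Benjamini-Hochberg over every gene tested and a threshold of 0.05. The day 10 set was assumed to vary like the day 8 sets. Common dispersions were 0.113 and 0.0928. Genes tested passed filterByExpr and were read in 10% or more of the cells of a sum. S cells against other cells is a log2 ratio of summed CPM plus 1, with no test. Thinned shares use 50000 reads drawn from each cell. Intervals are Clopper-Pearson at 95%, and with the limits on 0 (3 reads or cells) cover counting error only.

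Named were the 16 scored genes, members of the stem, multipotent and gate lists, the 20 highest and 10 lowest genes against other cells, the 5 largest rises and falls among called genes with 32 CPM or more on either day, read in 20% or more of the S cells of a set and with both day 8 sets on the same side, and listed genes that were called or had the highest CPM of their list. Genes named outside this rule (Arsb, Grn, Gaa, Hexa, Pdia6, P4hb, Egfl7, P2ry14 and others) were chosen after their values were seen. The class and the 39 lists were chosen with earlier results of these data known. Alternatives were DESeq2 1.42.0, limma 3.58.1 voom, other filters and depths, and other forms of the rule. All 6 sets in the fit, the fit without Slc34a2 and CT010467.1, and counts over 3 sets were added after seeing the data. The tests were tried on simulated counts. One gene of the lists is not reported here.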

Additional observations from a re-analysis of the deposited data

Results flagged for a closer look

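Mir6236 was singled out because its change from day 8 to day 10 differed between S cells and the other cells by an interaction test. The difference was 2.71 on the log2 scale (edgeR adjusted p = 0.0259), with a smaller fall in S cells, from 90.9 and 881 to 57.5 CPM, than in the other cells, from 664 and 7171 to 67.2. It was 2.81 without the first day 8 set and 2.62 without the second, values with no test, and limma voom gave 2.78 with an adjusted p of 0.446. E cells held 4861 CPM of Mir6236 over all sets, against 372 in S, 497 in G and 1562 in M cells. Class and set are mixed in these pooled levels. The second day 8 set, with the highest level, gave 29 of 74 E cells and 48 of 139 S cells. It gave 8 of 127 G and 8 of 160 M cells. In S cells, 1 cell gave 45.5% of the day 8 reads of Mir6236. The cause was not tested.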

How the results depend on the processing

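Among results that kept their direction in every alternative run were the changes of Mpo (0.92 to 1.76), Prtn3 (0.44 to 0.98), Fcgr3 (1.32 to 2.18) and Cpa3 (-3.22 to -1.67). With S cells leading by at least 0.5, Tifab (-0.83), Ltb4r1 (-0.15) and Ly6c2 (-0.49) reversed, and 39 of its 119 higher and 20 of its 142 lower calls were shared with the calls reported. With z-values within each set, the shares of S cells were 20.7% at day 0, 33.3 and 31.2% in the day 8 sets and 20% at day 12. With the lead of 0.5 they were 2.17% at day 0, 32.2 and 28% in the day 8 sets, 11.8% at day 10, 2.13% at day 14 and 14.4% over all. The second day 8 set had 40.9% without Ifitm1 in the score, and day 14 had 0% among cells with at least 200000 reads and 2000 genes.

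Genes at least 2-fold higher in every set numbered 22 over the 3 sets with at least 10 S cells, 0 with scores of thinned cells and 2 without Ifitm1, and those lower 46 over the 3 sets and 52 with the lead. From day 8 to day 10, calls were 58 higher and 46 lower by DESeq2's Wald test, 60 and 4 by voom, 0 and 0 with no gene filter (1214 at an unadjusted p under 0.05), 37 and 17 after thinning, 90 and 53 with scores of thinned cells, and 69 and 40 with all 6 sets in the fit. They were 117 and 107 without Ifitm1 and 78 and 92 in the deeper cells, so that lower calls outnumbered higher ones in the deeper cells and with the lead. For the difference from other cells they were 13 and 7 by DESeq2, 0 by voom (989 at an unadjusted p under 0.05) and 0 with the lead (1744), 35 and 42 with no gene filter, 4 and 7 after thinning, and 2 higher without Slc34a2 and CT010467.1. The cause was not tested. Without a day 8 set no residual degree of freedom is left, so only changes were computed. The fit on the sets of the compared days is the fit reported. Only day 8 has numbered sets. No paired analysis was possible because the groups compared share no replicate numbers.

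With 1 set on day 10 and 25 S cells there, no spread between sets of that day was measured, and changes near 2-fold or in genes read in few cells are beyond this depth.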
